A study of Mus musculus with 4 samples.

Results

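The genes described here encode 38 junction and polarity proteins of the blood-testis barrier and of the contacts between Sertoli cells and germ cells. They were chosen by name: a probe set counted when the platform annotation gave it the symbol of 1 listed gene, and the brightest probe set of each gene, by mean signal over all arrays, stood for it. All 38 genes had a probe set, out of 18193 named genes on the array, and 31 of them had a brightest probe set whose mean signal reached 45.8, the median over all mouse probe sets and the lowest mean kept for testing. RNA came from whole testes of 8-week-old C57BL/6J wild type and Taf7l knockout mice, described by the series as littermates, and was hybridised to 2 Affymetrix arrays per genotype. The second knockout array is replicate 2 in its title and replicate 1 in its description, so the labels do not show that the knockout arrays came from separate animals, and the p-values may then reflect technical spread. Taf7l encodes a germ cell relative of a subunit of TFIID, the complex that positions RNA polymerase at promoters. The labels give no detail of how its allele was disrupted. As a check of the labels, the Taf7l signal was 829 and 818 in wild type and 80.6 and 72.5 in the knockout.

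The blood-testis barrier is formed between neighbouring Sertoli cells near the base of the seminiferous tubule. It combines tight junctions with actin-rich adherens junctions called ectoplasmic specializations, gap junctions and desmosome-like contacts, and it opens and reforms as preleptotene spermatocytes cross it. Claudins, occludin and the JAM family seal the space between cells, scaffold proteins with PDZ domains tie them to actin, and the Crumbs and Par complexes set apical against basal polarity. Related adhesion proteins, among them nectins and Cadm1, hold spermatids and other germ cells to Sertoli cells. In a whole testis, fewer cells of a type and less RNA per cell cannot be told apart.

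Of the 31 genes tested, 1 passed the test between genotypes. Patj, a scaffold with many PDZ domains that joins the Crumbs complex, fell 2.60-fold in the knockout testis. The other 30 did not pass, among them those for the sealing proteins Cldn11 and Cldn3, the scaffold Tjp1 and the gap junction protein Gja1. The next largest difference was that of Prkcz, which encodes an atypical protein kinase C of the Par complex and had a signal 1.54-fold higher in the knockout (limma adjusted p = 0.059).

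Patj, the member that passed the test, is shown first with the sequence just before its annotated starts. Whether Taf7l acts at these starts was not tested. RefSeq (GRCm38.p6) gives Patj 3 starts, and the 100 bases before each read as follows, 5′ to 3′, beside those before the first start of Prkcz. Capitals mark matches, on either strand, to the motifs searched, which were the TATA box as TATAAA, the NF-Y site as CCAAT, the cAMP response element as TGACGTCA and the GC box as GGGCGG.
Patj start 1 (chr4:98395726-98395825, + strand): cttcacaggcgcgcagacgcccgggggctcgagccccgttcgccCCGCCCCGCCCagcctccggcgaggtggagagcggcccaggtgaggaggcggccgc
Patj start 2 (chr4:98410927-98411026, + strand): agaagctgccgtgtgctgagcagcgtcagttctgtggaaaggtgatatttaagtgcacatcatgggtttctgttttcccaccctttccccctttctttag
Patj start 3 (chr4:98546534-98546633, + strand): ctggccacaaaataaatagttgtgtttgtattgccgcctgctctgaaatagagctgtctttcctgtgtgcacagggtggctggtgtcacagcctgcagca
Prkcz start 1 (chr4:155361429-155361528, - strand): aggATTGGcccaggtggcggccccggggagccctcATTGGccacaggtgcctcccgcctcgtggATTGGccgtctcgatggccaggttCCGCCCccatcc
The capitals before the first Patj start are 2 matches to GGGCGG on the reverse strand that overlap by 1 base, and the windows before the other 2 starts held none of the 4 motifs. The Prkcz window held 3 matches to CCAAT and 1 to GGGCGG, all on the reverse strand, and those before its other 2 starts held none. Over the 32851 windows of the same length in the RefSeq table, GGGCGG stood in 24.7%, CCAAT in 18.9%, TATAAA in 5.56% and TGACGTCA in 1.15%. Over the 41 such windows of the 27 members in that table, GGGCGG stood in 61.0%, CCAAT in 26.8%, TGACGTCA in 2.44% and TATAAA in 0. These matches describe the letters alone, and which start is used in testis was not measured.

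The Patj signal was 859 and 883 in wild type, against 333 and 337 in the knockout. Both knockout values lay far below both wild type values, and the replicates of each genotype differed little. The mean fell from 871 ± 16.5 to 335 ± 3.20 (SD, n = 2 arrays each), a log2 difference of −1.38 (SE 0.076), with an adjusted p = 0.022 by limma with Benjamini-Hochberg adjustment over 22519 probe sets. Of the 12241 genes tested at their brightest probe set, 1.74% passed in either direction and 1.2% passed as lower, so 1 gene of 31 (3.23%) is near that background. Of the 12241, 7 genes lay lower than Patj. A dimmer Patj probe set, too low for testing, had 35.4 and 28.5 in wild type and 16.8 and 16.9 in the knockout. The remaining 2 Patj probe sets had signals of 4.62 to 4.73 and were not tested.

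With any 1 array left out, the log2 difference of Patj lay between −1.40 and −1.36. Such a fit has 1 residual degree of freedom, and the lone array of a genotype is assumed to vary like the other 2. The limma adjusted p of Patj was then 0.353 and 0.297 when the first or the second wild type array was dropped, and 0.152 and 0.085 when the first or the second knockout array was. In these fits 0 of the 22519 probe sets passed, Taf7l included, so the lost call says nothing particular to Patj. An exact permutation test of 2 arrays against 2 cannot go below p = 0.333, so the call rests on limma's sharing of variance between probe sets.

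The partners of Patj in the Crumbs complex did not pass. Pals1 (listed on the array as Mpp5) bridges Patj to the Crumbs proteins. Its signal was 1899 and 1663 in wild type and 1511 and 1620.3 in the knockout (log2 −0.18, limma adjusted p = 0.29). The difference was −0.072 after quantile normalization, −0.088 without wild type replicate 1 and −0.28 without wild type replicate 2. The knockout values were the lower pair, but the gap to wild type was smaller than the gap between the wild type arrays. The other 2 Pals1 probe sets differed by −0.015 and −0.24, with groups that overlapped. Crb3, the short transmembrane Crumbs protein of epithelia, was at 113 and 109.6 in wild type and 106 and 110.0 in the knockout, with overlapping groups. Mpdz, a close relative of Patj that also carries many PDZ domains, was at 162 and 138 in wild type and 133 and 125 in the knockout. Those groups did not overlap, yet the difference of −0.21 did not pass (limma adjusted p = 0.34). At a dimmer Mpdz probe set, under the level kept, the order was reversed (log2 0.53). It read 29.7 and 21.7 in wild type and 32.4 and 41.5 in the knockout. At the 2 dimmest Mpdz probe sets the knockout was slightly lower (log2 −0.087 and −0.052).

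In the Par complex the 2 members farthest apart between genotypes differed in opposite directions. Prkcz had a signal of 339 and 317 in wild type and of 545 and 468 in the knockout. The means were 328 ± 15.7 and 507 ± 54.8 (SD, n = 2 arrays each), a log2 difference of 0.62 (SE 0.11, limma adjusted p = 0.059). Both knockout arrays were above both wild type arrays, and with 1 array left out the difference stayed between 0.51 and 0.73. Its other 2 probe sets had mean signals of 12.9 and 8.09 and were not tested. Pard6a, an adaptor that binds atypical protein kinase C and Cdc42, was at 1205 and 1166 in wild type and 997 and 999.7 in the knockout (log2 −0.25, limma adjusted p = 0.11). All knockout values were again on 1 side, here below, and the difference was −0.14 after quantile normalization.

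The other Par genes were close to equal or too dim. Prkci, the second atypical protein kinase C, was at 428 and 376 in wild type and 411 and 425 in the knockout at its brightest probe set. There the groups overlapped, while a dimmer probe set read 67.9 and 76.3 against 95.6 and 99.1, with no overlap (log2 0.44, limma adjusted p = 0.089). Pard6b, a second Pard6 adaptor, was at 43.4 and 49.8 in wild type and 45.6 and 46.6 in the knockout. Pard3, the scaffold that starts Par complex assembly, had signals between 18.5 and 19.4 on the 4 arrays, under the level kept for testing.

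**Figure D1:**
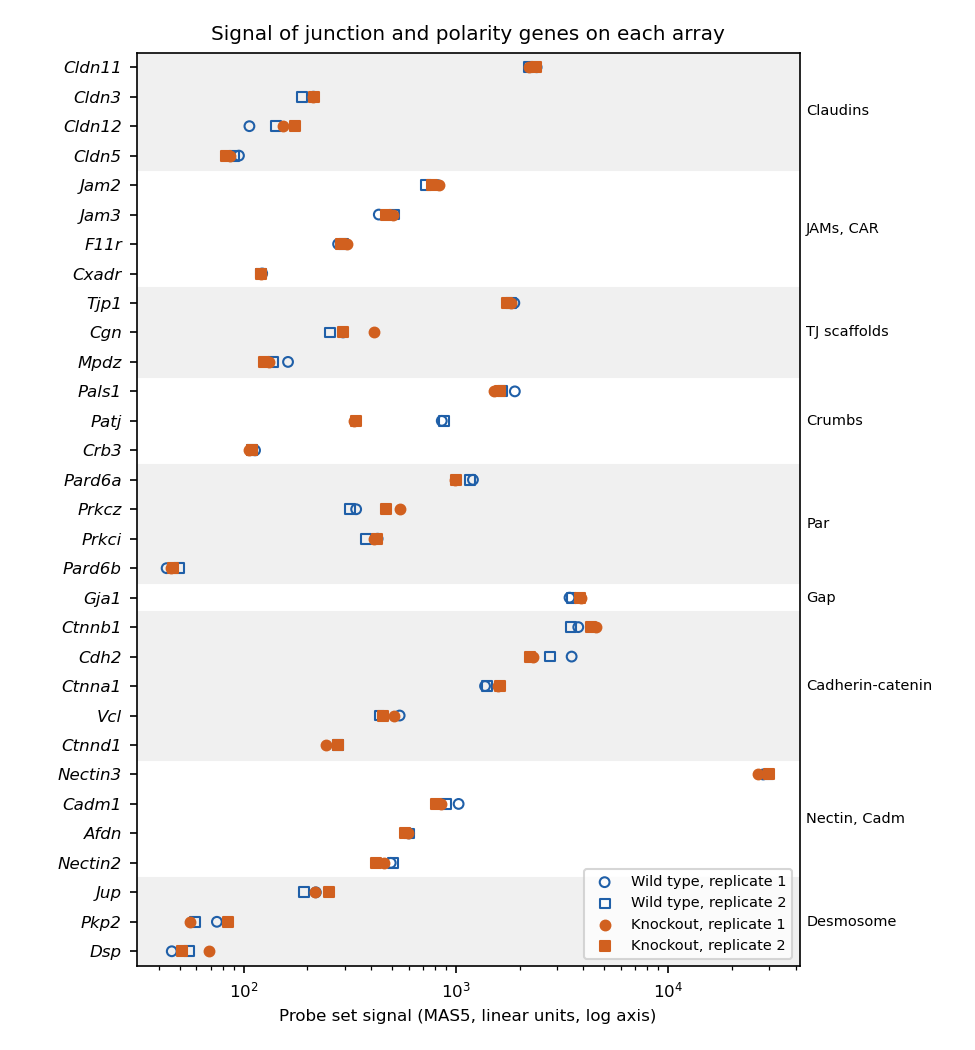
Signal of the 31 genes tested, at the brightest probe set of each, on each of the 4 arrays (log axis); open blue marks are wild type, filled orange marks knockout, and grey bands separate the roles (TJ, tight junction; CAR, the product of Cxadr). Groups do not overlap in 14 of the 31 genes. On the log axis Patj has the widest gap between its knockout marks (333 and 337) and its wild type marks (859 and 883). Prkcz shows the opposite order with a smaller gap.

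The claudins, which form the seal of the tight junction, did not pass. Cldn11, the claudin of Sertoli cells that mice need for an intact barrier, was at 2405 and 2205 in wild type and at 2206 and 2393 in the knockout. The groups overlapped almost fully (log2 −0.0035, SE 0.079, limma adjusted p = 0.99), and the difference was 0.11 after quantile normalization. Cldn3, a claudin that androgen raises in mouse Sertoli cells, was at 214 and 188 in wild type and 213 and 215 in the knockout. The groups overlapped at this and at both of its other kept probe sets, whose differences were 0.066 and 0.021. At the dimmest of these the values of wild type replicate 1 and of both knockout arrays were identical.

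Cldn12, a widely expressed claudin, read 107 and 142 in wild type and 153 and 175 in the knockout. The knockout was higher on both arrays (log2 0.41, limma adjusted p = 0.22), though the second Cldn12 probe set overlapped between groups and differed by 0.047. Without wild type replicate 1 the difference at the brightest was 0.20, and without wild type replicate 2 it was 0.62. Cldn5, found in endothelium as well as in Sertoli cells, was at 95.1 and 90.4 in wild type and 86.6 and 82.4 in the knockout (log2 −0.13, limma adjusted p = 0.45). Cldn1 had signals of 9.66 to 11.1 and was not tested. The 2 genes for proteins with a MARVEL domain were also under the level kept, Ocln (occludin) at 39.1 and 58.1 in wild type and 39.6 and 42.9 in the knockout, and Marveld2 (tricellulin) at 9.62 to 10.4.

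The immunoglobulin-like proteins of the tight junction did not pass either. Their log2 differences ran from −0.0086 to 0.058 at the brightest probe sets, with overlapping groups in 4 of 4 genes. Jam2, which pairs with Jam3 between Sertoli cells and spermatids, was at 821 and 722 in wild type and 832 and 772 in the knockout. Its 2 other kept probe sets differed by 0.19 and 0.28, with the knockout higher on both arrays and neither passing. At the 2 below the level kept the groups overlapped, and the differences were 0.27 and −0.034. Jam3, which mouse spermatids need to polarise, was at 434 and 510.2 in wild type and 504 and 468 in the knockout. F11r, the JAM-A gene, was at 279 and 296 against 309 and 288. Cxadr, the receptor for coxsackieviruses and adenoviruses, spanned only 121 to 122 over all arrays.

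Among the scaffolds that lie under the membrane, Tjp1 (ZO-1) was at 1889 and 1821 in wild type and 1831 and 1753 in the knockout. The groups overlapped, and the difference of −0.050 became 0.073 after quantile normalization. Cgn (cingulin), which links tight junctions to actin and microtubules, was at 294 and 256 in wild type and 412 and 294 in the knockout. Its knockout mean of 353 ± 83.4 stood above the wild type mean of 275 ± 27.2 (SD, n = 2 arrays each), but the groups overlapped. Without knockout replicate 1 the log2 difference was 0.098. Tjp3 had signals of 12.7 to 15.8 and was not tested.

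Gja1, the main gap junction protein between Sertoli cells, had 6 kept probe sets, and the knockout mean was higher at all 6. At the brightest the signal was 3438 and 3513 in wild type and 3876 and 3862 in the knockout (log2 0.15, SE 0.055, limma adjusted p = 0.17). The groups did not overlap at 4 of the 6 probe sets, the differences ran from 0.053 to 0.25, and none passed. After quantile normalization the brightest differed by 0.29 (limma adjusted p = 0.078).

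The cadherin-catenin genes lay apart in different directions without passing. Cdh2, the N-cadherin of the Sertoli cell adherens junction, was at 3518 and 2778 in wild type and 2319 and 2246 in the knockout. Between themselves the wild type values were farther apart than wild type replicate 2 was from either knockout array (log2 −0.45, SE 0.12, limma adjusted p = 0.10). Without wild type replicate 1 the difference was −0.28 and without wild type replicate 2 it was −0.62, so the size depends on that pair. The second Cdh2 probe set showed the same spread, at 1190.3 and 748 in wild type and 741 and 688 in the knockout.

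Ctnnb1 (β-catenin), which joins cadherins to α-catenin, was at 3781 and 3484 in wild type and 4594 and 4359 in the knockout. The knockout was higher on both arrays (log2 0.30, SE 0.069, limma adjusted p = 0.081), as it was at both dimmer probe sets (0.28 and 0.20). Ctnna1 (α-catenin), the link to actin, was at 1375 and 1409 in wild type and 1581 and 1609 in the knockout (log2 0.20, limma adjusted p = 0.15), and its second kept probe set differed by 0.27 without overlap. Vcl (vinculin), an actin-binding protein of the ectoplasmic specialization, overlapped at its brightest probe set, at 544 and 437 against 509 and 452. Its other probe set read 258 and 263 in wild type and 180.0 and 218 in the knockout (log2 −0.40, limma adjusted p = 0.13). Ctnnd1, the catenin that steadies cadherins at the membrane, was at 278 and 279.5 in wild type and 244 and 279 in the knockout.

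Nectin3, carried by mouse spermatids and bound by the Nectin2 of Sertoli cells, gave different readings at different probe sets. At its brightest the signal was 28103 and 29750.5 in wild type and 26658 and 30071 in the knockout, with overlapping groups and a log2 difference of −0.030. The next 2 in brightness also overlapped, at 0.045 and −0.092. At the 3 dimmest kept probe sets the knockout was lower on both arrays, by −0.50, −0.49 and −0.46 on the log2 scale (limma adjusted p = 0.055, 0.097 and 0.10). The brightest of those 3 read 594 and 564 in wild type and 402 and 418 in the knockout. The sources used here do not say which transcripts each probe set reads. Nectin3 is 1 of 2 genes, with Nectin2, whose kept probe sets differed in direction.

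Nectin2 was at 494 and 508 in wild type and 459.9 and 419.9 in the knockout (log2 −0.19, limma adjusted p = 0.26), while its other probe set was 0.062 higher without overlap. Cadm1, an adhesion protein of germ cells that binds Sertoli cells, was at 1032 and 901 in wild type and 856 and 805 in the knockout (log2 −0.22, limma adjusted p = 0.24). Of its 4 kept probe sets all had a lower knockout mean and 3 had groups that did not overlap, with differences from −0.28 to −0.031. Afdn (afadin), which ties nectins to actin, was at 603 and 602 against 594 and 574, a log2 difference of −0.046 that became 0.031 after quantile normalization.

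**Figure D2:**
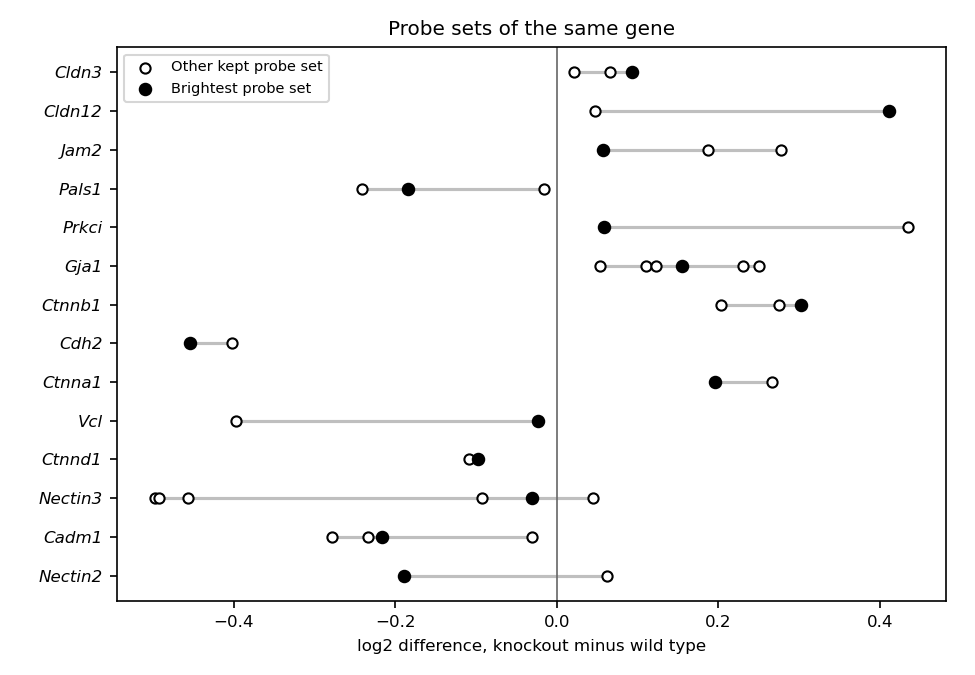
Log2 difference between knockout and wild type at each kept probe set of the 14 genes with more than 1; filled marks are the brightest probe set and open marks the others. For 12 genes all kept probe sets lay on 1 side of 0, 7 higher and 5 lower in the knockout, and Nectin3 spans from −0.50 to 0.045.

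Of the 5 desmosome genes 3 were tested and none passed. Jup (plakoglobin), shared by desmosomes and adherens junctions, was at 219 and 193 in wild type and 218 and 252 in the knockout, with overlapping groups (log2 0.19, limma adjusted p = 0.41). Dsp (desmoplakin), the link to intermediate filaments, was at 45.9 and 55.4 against 68.6 and 51.5. Pkp2 (plakophilin), a plaque protein, was at 74.9 and 59.1 against 55.9 and 84.7, where the 2 knockout arrays lay on either side of wild type. A dimmer Pkp2 probe set, under the level kept, read 24.4 and 23.7 in wild type and 44.4 and 47.1 in the knockout. The desmosomal cadherin genes Dsc2 and Dsg2 had mean signals of 9.59 and 17.8 and were not tested.

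As a group the members stood close to the rest of the array. The median log2 difference of the 31 was −0.0086, against −0.051 over all 12241 genes, and these were 0.048 and −0.0018 after quantile normalization. The knockout mean was lower in 17 of 31 (54.8%, against 60.7% of all genes). After quantile normalization it was lower in 12 of 31, against 50.4% of all genes, and Afdn, Cldn11, Nectin3, Tjp1 and Vcl turned sign. Groups did not overlap in 14 of 31 (45.2%, against 58.3% of all genes), 9 of them lower (38.7% of all genes were) and 5 higher (19.6%) in the knockout. An unadjusted limma p under 0.05 was found for 7 of 31 (22.6%), against 27.9% of all genes. In a range chosen after the values were seen, 25 of 31 (80.6%) lay within 0.3 of 0 on the log2 scale, as did 79.3% of all genes. The 6 outside it were Patj and Cdh2 below and Prkcz, Cldn12, Cgn and Ctnnb1 above. With 1 array left out, the difference ran from −0.31 to −0.12 for Cadm1, from −0.33 to −0.097 for Mpdz, from −0.25 to −0.12 for Nectin2, from 0.032 to 0.44 for Dsp and from 0.085 to 0.29 for Jup. After quantile normalization that of Ctnna1 was 0.30, and those of Cadm1 and Nectin2 were both −0.12.

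**Figure D3:**
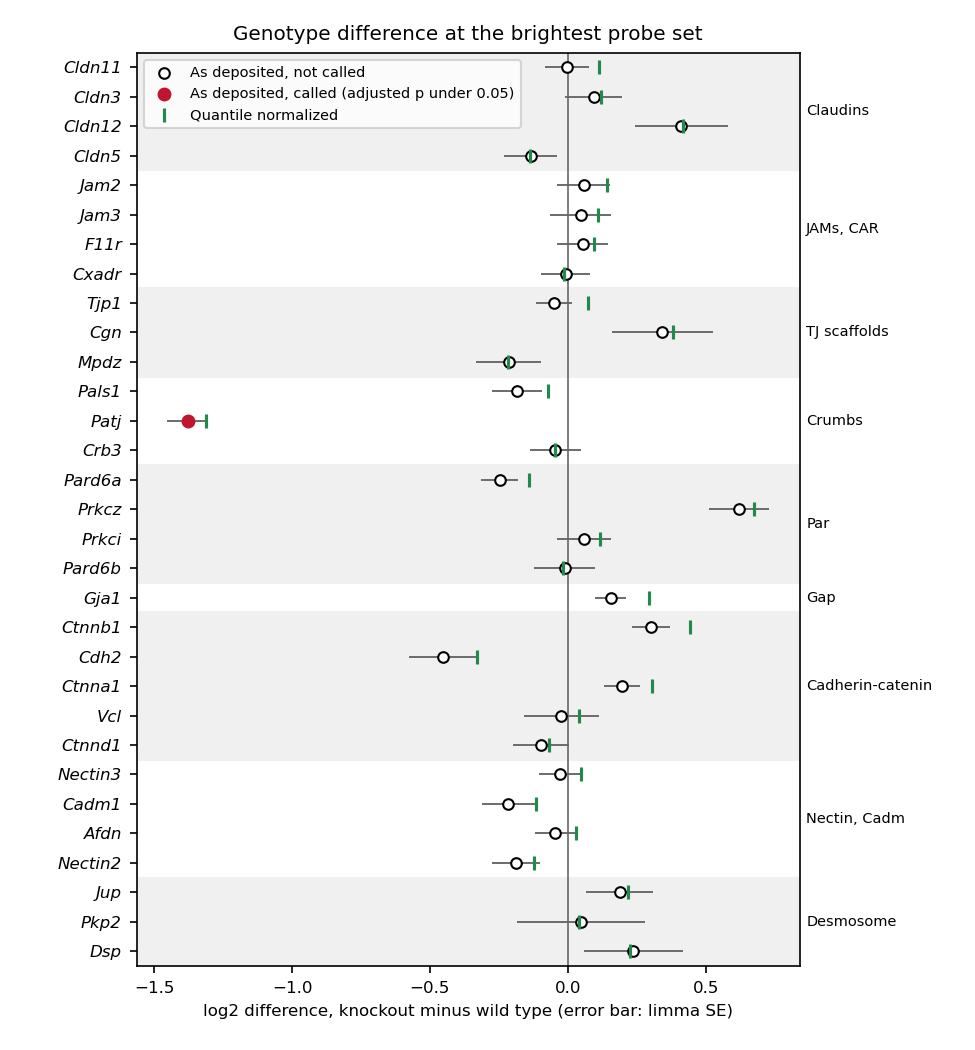
Log2 difference between knockout and wild type (points, with limma SE as error bars) at the brightest probe set of the 31 genes tested, and the same difference after quantile normalization (green ticks). Patj, the filled red point at −1.38, is the gene that passed, and the green ticks of bright genes such as Cldn11 and Gja1 lie to the right of their points.

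**Figure D4:**
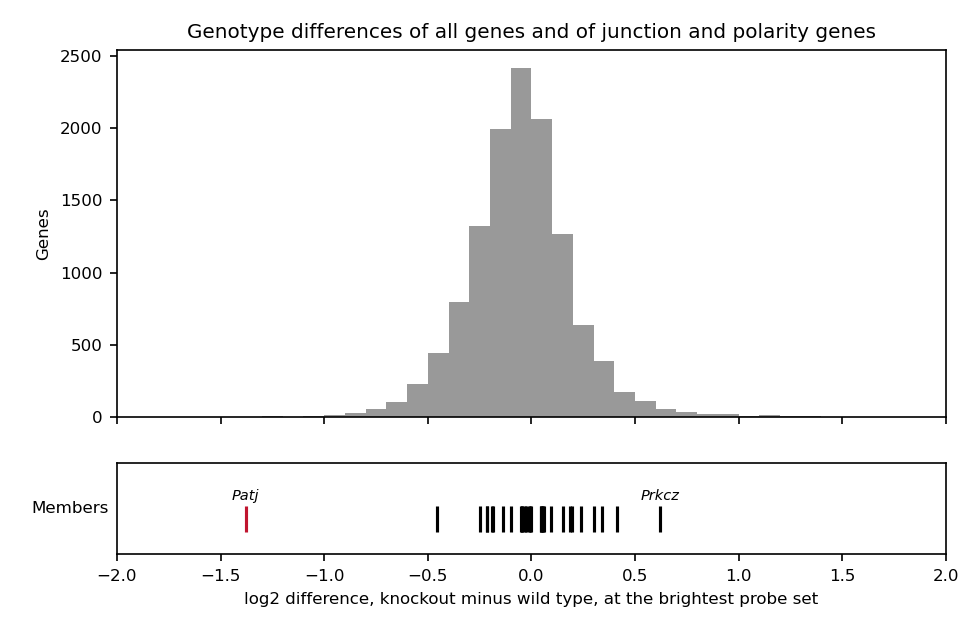
Number of genes in bins of log2 difference at the brightest probe set, over all 12241 genes tested (bars; 8 genes beyond the axis are not drawn), with the 31 junction and polarity genes as ticks below. Apart from Patj at −1.38 and Prkcz at 0.62, the ticks lie within the bulk of the distribution.

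Other genes of the same junctions and complexes were read from a list of 84, of which 77 had a probe set and 44 were tested. Of these 0 passed by limma in either direction, against 1.74% of all genes, and 5 (11.4%) had an unadjusted p under 0.05, against 27.9% of all genes. The median log2 difference was −0.044, against −0.051 over all genes. Those with the smallest p were Lin7a, a PDZ partner of Pals1 (4872 ± 237.7 and 4176 ± 101.4, adjusted p = 0.12), and the α-catenin relative Ctnna3 (1488 ± 41.4 and 1227 ± 114, adjusted p = 0.14). At its 2 dimmer probe sets Lin7a differed by more, −0.51 and −0.56 on the log2 scale, with limma adjusted p of 0.065 and 0.058. Next came the catenin-like Ctnnal1, higher in the knockout (154 ± 6.17 and 191 ± 11.3, adjusted p = 0.14), and the scaffold Magi1, lower (133 ± 12.3 and 105 ± 7.36, adjusted p = 0.16).

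Another list of 38 genes covered the adhesion, actin and signalling proteins of the ectoplasmic specialization, and 32 of the 35 with a probe set were tested. Of these 1 passed (3.12%), near the 1.74% of all genes that did, and 12 (37.5%) had an unadjusted p under 0.05, against 27.9%. The median log2 difference was −0.053. The gene that passed, Tln1 (talin), which couples integrins to actin, read 3125 and 3031 in wild type and 2111 and 2190.2 in the knockout. It fell 1.43-fold (log2 −0.52, SE 0.061, limma adjusted p = 0.047), although a dimmer Tln1 probe set differed by 0.023 with overlapping groups, and after quantile normalization 0 genes of the list passed. Pxn (paxillin), a partner of talin at such sites, had a lower knockout mean at 3 of 3 probe sets, by −0.47 at the brightest (limma adjusted p = 0.063). Rptor, a subunit of the mTOR complex that in rat Sertoli cells bears on barrier tightness, was at 237 and 266 in wild type and 383 and 372 in the knockout (log2 0.59, limma adjusted p = 0.055). Palld (palladin), an actin cross-linker, differed by 0.39 and Mtor by −0.24, with limma adjusted p of 0.081 and 0.098. Groups overlapped at the other kept probe sets of both genes, which differed by −0.14 and 0.15 for Palld and by −0.020 for Mtor.

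Array-wide facts that bear on these values are as follows. Median signals lay between 45.2 and 45.7 on all arrays, while means without the lowest and highest 2% were 509 and 509 in wild type against 465 and 481 in the knockout. Over all kept probe sets 100 were called higher and 212 lower, and after quantile normalization 91 and 57. Wild type replicate 2 and knockout replicate 2 had identical values at 2385 of the 45037 mouse probe sets, against 228 to 620 for other pairs of arrays. Among the members' kept probe sets that pair had 0 identical values. The origin of identical values was not tested. Markers of other cell types were read by their summed signal. The sum of 18 Sertoli markers was 79158 and 77312 in wild type and 94756 and 93696 in the knockout (median log2 difference 0.097, 0 of 18 passing). Clu alone, at 35026 and 32203 against 43413 and 37656, made up a large part of that sum, 12 markers were higher and 6 lower, and 9 overlapped between groups. Without overlap 8 Sertoli markers were higher in the knockout (44.4%, against 19.6% of all genes). Only 1 was lower without overlap (5.56%, against 38.7%), Inhbb at 339 and 349 against 278 and 304. Sox9 and Wt1 were among those that overlapped, as were Gata4 and Nr5a1, whose knockout means were lower. The 5 Leydig markers summed to 16641 and 16430.5 against 20460 and 20906. Of these 1 passed, Cyp17a1 (20%, against 1.74% of all genes). All 5 had a higher knockout mean, 4 of them without overlap (80%, against 19.6% of all genes). The 10 spermatid markers summed to 413550 and 402386 against 385388 and 374772 (0 of 10 passing). Of these 10, 9 had a lower knockout mean and 1 a higher one. The knockout was lower without overlap in 6 (60%, against 38.7% of all genes). The 6 myoid markers summed to 11432 and 11764 against 11700.0 and 11526, the 7 macrophage markers to 3539 and 3538 against 3869 and 4112, the 5 spermatogonia markers to 1089 and 1147 against 1175 and 1120, and the 9 spermatocyte markers to 68887 and 71525 against 64039 and 71198. None of these passed, though all 7 macrophage markers had a higher knockout mean. Adipocyte markers set wild type replicate 2 apart, at 4114 for 5 genes against 941 on the other wild type array and 1039 and 1748 on the knockout arrays. All 5 had a lower knockout mean (median log2 difference −0.38), 2 of them without overlap (40%, against 38.7% of all genes). Of the 12 markers of duct epithelium 7 were under the level kept. Of the other 5, 1 passed (20%, against 1.74% of all genes), Krt8 as higher in the knockout. Without overlap 3 of these 5 were lower in the knockout (60%, against 38.7% of all genes) and 1 was higher (20%, against 19.6%). Their log2 differences ran from −2.17 to 0.99. Like the adipocyte markers, Cuzd1 was highest on wild type replicate 2 (436 against 192, 117 and 129). Of the 9 endothelial markers 6 were under the level kept. What part these levels had in the members' values was not tested.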

How the data were processed

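Whole-testis RNA was measured on 4 Affymetrix arrays, 2 wild type and 2 Taf7l knockout. The deposited table holds linear intensity values for 45101 probe sets; the submitters' processing notes name MAS5 without a version, and the scaling target and detection calls are not given in the sources used here. Of 45037 mouse probe sets, 34945 had 1 gene symbol in the platform annotation, 932 had several and were dropped, and 9160 were unnamed. Symbols were updated through RefSeq (GRCm38.p6).

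The log2 of each signal was used, with an offset of 0. The 22519 probe sets with a mean signal of at least 45.8 were kept and fitted with limma 3.58.1 in R 4.3.3 (lmFit, eBayes with a trend), with a genotype term alone, as a two-sided test, with Benjamini-Hochberg adjustment over all of them and a threshold of 0.05. The number of arrays limits the precision. Each gene was read at its brightest probe set. Text describes every member, with array values for those that passed, those past a set fold without overlap and the brightest of each role, and for others besides. From the other lists it names called genes and up to 4 more with the smallest p at the brightest probe set. Dlg5 was added for a dimmer probe set. Members and lists were chosen with earlier results of these data known. The 16 alternatives covered normalization, offset, filter, variance model, replicate block, threshold, probe set choice and leaving out each array. Sequences before gene starts came from RefSeq (GRCm38.p6) and were searched with Python 3.11.15.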

Additional observations from a re-analysis of the deposited data

How the results depend on the processing

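The count of members passing limma's test, 1 as reported (Patj), stayed at 1 under median centring, quantile normalization, an offset of 16, a robust prior, no variance trend, single-transcript probe sets and calls at any kept probe set. It was 0 of 38 with no filter, when 0 of the 45037 probe sets passed at all. With the 75th percentile filter it was 4 of 18 genes tested (Prkcz, Ctnnb1 and Cdh2 beside Patj). In that fit 432 probe sets were called higher and 1943 lower of 11260. At an adjusted p under 0.1 it was 3 of 31. With 1 probe set per gene it was 2 of 31, when 208 genes were called higher and 598 lower of 12241. Both of these fits thus called more over the whole array as well. Fits with 1 array left out are described above for Patj. The other junction list had 0 calls in every fit. The ectoplasmic specialization list, with 1 call of 32 as reported, had 0 under quantile normalization and 0 without the variance trend. Over the whole array the first of these fits called 91 probe sets higher and 57 lower, and the second 25 and 11. The list had 0 of 35 with no filter and 5 of 21 with the 75th percentile filter, fits whose calls over the array are given above. It had 6 of 32 at an adjusted p under 0.1 and 3 of 32 with 1 probe set per gene. With the replicate number as a block, 2 members passed (Prkcz at an adjusted p = 0.049 beside Patj), over the array 179 probe sets higher and 362 lower against 100 and 212. The labels do not tie same-numbered arrays together, and the deviations of same-numbered arrays from their group means correlated at 0.032 over 22519 probe sets. Differences near 0 turned sign after quantile normalization for Cldn11 (0.11), Nectin3 (0.048) and Tjp1 (0.073), and for Nectin3 (0.045) at its brightest single-transcript probe set. With 1 array left out Cldn11 ran from −0.066 to 0.059, Jam2 from −0.035 to 0.15 and Nectin3 from −0.12 to 0.057. Where the filter was changed, so was the number of probe sets adjusted over (45037 and 11260). The cause of the other changes was not tested. Signals under 45.8 left 7 of the 38 members untested.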
